A study of Mus musculus with 9 samples.

Results

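The neural and progenitor *Sox* family genes were followed in mouse pluripotent stem cells held in 2 states. Rows of the deposited count file were taken whose Ensembl identifier maps to *Sox1*, *Sox3*, *Sox4*, *Sox9*, *Sox11*, *Sox12*, *Sox13*, *Sox15* or *Sox21*, which gave 9 of the 54232 genes counted. All 9 were measured in every library and none was lost to the filter on low counts in any comparison. RNA-seq libraries came from naïve embryonic stem cells and from primed cells, each at passage 5 (P5) and passage 15 (P15) with 2 libraries per group, and from 1 library of mouse embryonic fibroblasts (MEF). The cells were of strain C57 x CBA and, per the study's methods, of the OG2 line, which carries a GFP reporter under the distal *Oct4* promoter. Naïve cells grew in S/L medium (serum with LIF). Primed cells had been converted from naïve cells and grew in F/A medium (Fgf2 with Activin A). Both states shared a layer of mitomycin C-treated MEF feeder cells. The state comparison therefore rests on cells of that line alone, and medium and state cannot be told apart. Nothing in the labels ties the replicates to separate cultures, so the p-values measure the spread between these libraries, which may be technical. Total counts ran from 14378051 to 20985136 in the 8 stem cell libraries and reached 25646547 in the MEF library.

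Sox proteins are transcription factors that bend DNA through a high-mobility-group (HMG) box, the domain they share with the testis-determining factor Sry. SoxB1 factors (Sox1, Sox2, Sox3) hold epiblast and neural progenitor cells undifferentiated, SoxB2 factors such as Sox21 act against them at shared sites, and SoxC factors (Sox4, Sox11, Sox12) act in progenitors and in early neurons. Sox13 (SoxD), Sox9 (SoxE) and Sox15 (SoxG) stand for other branches of the family, known for lymphoid, cartilage and stem cell or placental roles.

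The stretch of coding sequence at the start of the HMG box is shown because it is what places the 9 genes in this family and because near-identical stretches could share reads. The 27 bases below were read from the GENCODE M21 coding sequences and are given 5′ to 3′, with capitals marking bases that differ from *Sox1*.
Sox1: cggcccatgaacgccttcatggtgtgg
Sox3: cgAcccatgaacgcGttcatggtgtgg
Sox21: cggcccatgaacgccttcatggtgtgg
Sox4: cggcccatgaacgccttTatggtgtgg
Sox11: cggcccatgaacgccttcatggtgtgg
Sox12: cggccGatgaacgcGttcatggtgtgg
Sox13: AgAcccatgaaTgccttcatggtgtgg
Sox9: cgAcccatgaacgccttcatggtgtgg
Sox15: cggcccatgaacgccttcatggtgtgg

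*Sox21*, *Sox11* and *Sox15* carried the same 27 bases as *Sox1*, and *Sox13* differed from it at the most positions, 3. Over 225 aligned bases of the HMG box, *Sox1* and *Sox3* were 89.3% identical, as were *Sox4* and *Sox11*. The most distant pair, *Sox13* and *Sox15*, shared 58.2%. No stretch of 50 bases in the exons of any member occurred in another member, so a read of that length without mismatches could belong to 1 of them at most. Overlapping genes were found for *Sox4*, *Sox21*, *Sox1* and *Sox15* and are named with those genes, because the library kit does not mark strand.

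Start-site windows are shown for *Sox12* and *Sox15*, the members with the most and the fewest CG dinucleotides there and, among the 9, the most abundant per length in naïve cells and the least abundant per length in late primed cells. Each window runs from 250 bases before to 50 bases after the RefSeq start on GRCm38.p6, with CG in capitals. The *Sox12* window is chr2:152397997-152398296 on the minus strand and the *Sox15* window is chr11:69654787-69655086 on the plus strand, which ends upstream of the start GENCODE gives.
Sox12: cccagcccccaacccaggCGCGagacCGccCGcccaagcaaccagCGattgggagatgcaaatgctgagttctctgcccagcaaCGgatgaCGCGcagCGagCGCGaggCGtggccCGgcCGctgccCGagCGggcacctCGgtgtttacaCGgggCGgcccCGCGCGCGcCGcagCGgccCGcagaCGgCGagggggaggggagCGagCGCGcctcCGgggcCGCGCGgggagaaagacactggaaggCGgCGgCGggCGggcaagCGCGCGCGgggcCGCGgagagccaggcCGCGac
Sox15: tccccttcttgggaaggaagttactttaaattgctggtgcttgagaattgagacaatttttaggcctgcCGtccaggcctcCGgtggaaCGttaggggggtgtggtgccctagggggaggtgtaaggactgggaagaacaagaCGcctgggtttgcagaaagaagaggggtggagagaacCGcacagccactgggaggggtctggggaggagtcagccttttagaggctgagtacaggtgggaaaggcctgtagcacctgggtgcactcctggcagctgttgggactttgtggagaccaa

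The *Sox12* window held 47 CG dinucleotides and the *Sox15* window 5, against a median of 7 and an upper quartile of 20 over all 32851 mouse windows of this length. Windows of *Sox1* (37), *Sox13* (40), *Sox21* (22) and *Sox11* (21) also lay above that quartile, and that of *Sox4* held 12. The *Sox11* window, like that of *Sox15*, lies wholly upstream of the start GENCODE gives. RefSeq windows were used for 7 of the 9 members, *Sox3* and *Sox9* having no entry. On both strands, the hexamers ACAATG and ACAAAG, to which Sox factors are known to bind, occurred in 28.6% of all windows and in 1 of the 7, that of *Sox15*, which holds ACAAAG once. TATAAA occurred in 13.6% of all windows and in 0 of the 7.

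**Figure D1:**
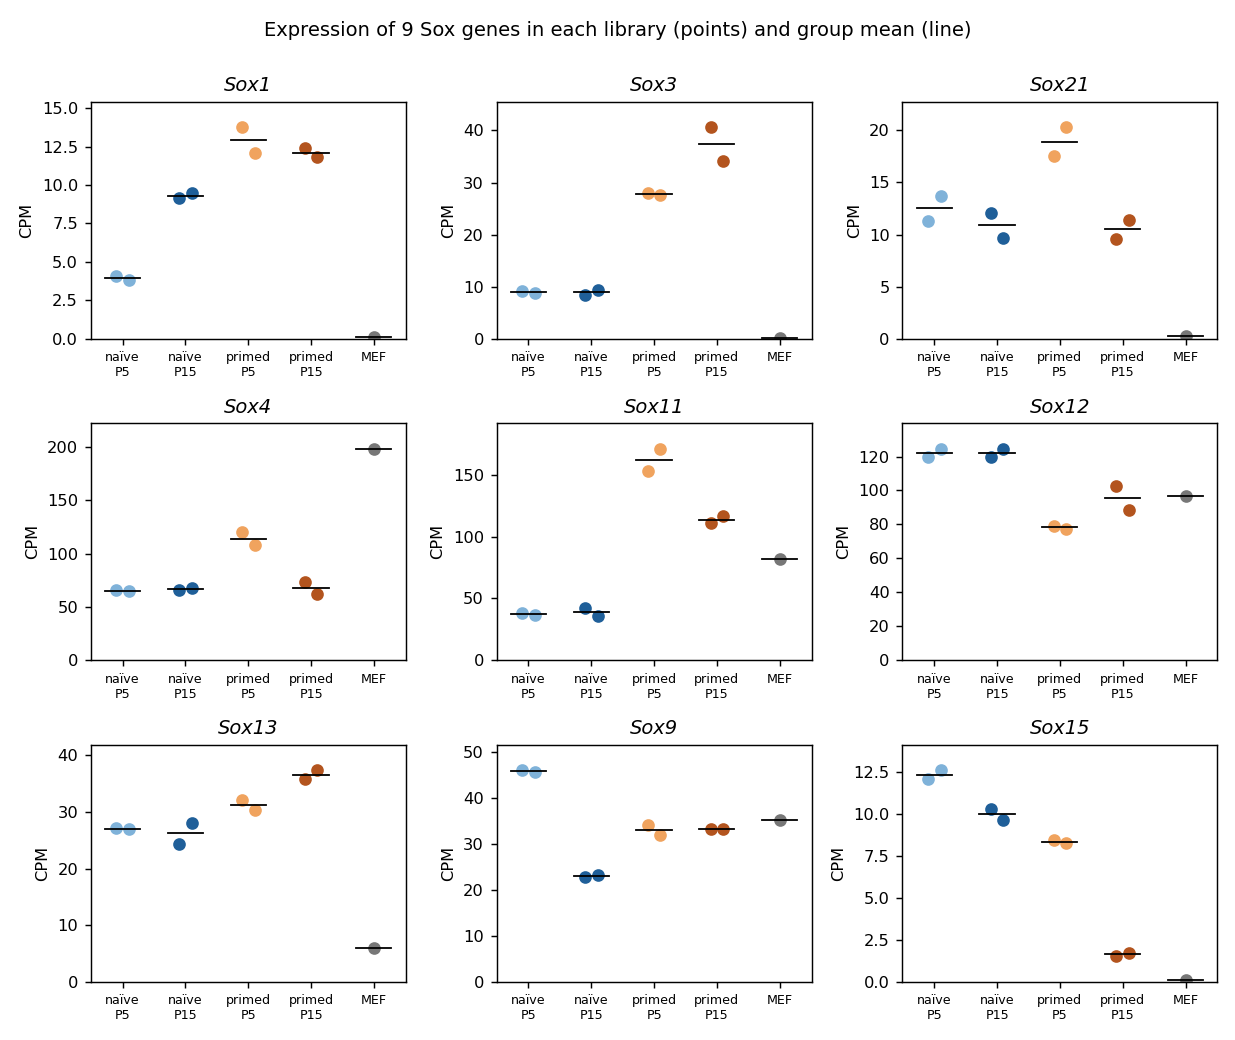
Expression of the 9 *Sox* genes in each library, in CPM (read counts after scaling for library totals; linear axes from 0, a scale of its own for each gene). Points are libraries and lines are group means; naïve cells in blue, primed in orange, MEF in grey. *Sox3* and *Sox11* were higher in all 4 primed than in all 4 naïve libraries, *Sox12* was lower, and *Sox15* stood between 1.55 and 1.70 CPM in primed P15.

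Levels are given as CPM scaled by the trimmed mean of M-values (TMM) over all 9 libraries, and differences as log2 fold changes from edgeR's quasi-likelihood test. Their standard error (SE) was taken as the size of the log2 fold change divided by the square root of the test's F statistic. A member was called at a Benjamini-Hochberg adjusted p under 0.01. At P5, 6 of the 9 members were called higher and 3 lower in primed cells, where 31.2% of all genes tested were called higher and 31.1% lower. At P15, 4 were called higher and 2 lower, where 28.2% of all genes were called higher and 28.4% lower. Called differences were thus common among all genes, and what sets the members apart from each other is the size and the course of their changes. With libraries scaled by their total counts alone, the median of all genes shifted by 0.21 on the log2 scale at P5 and by 0.10 at P15, and of all calls at P5 65.8% were then higher in primed cells, against 50.1% with TMM. In bulk RNA, fewer cells of a type and less RNA per cell cannot be told apart.

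The cells were checked against their labels. *Pou5f1*, the gene of Oct4, stood at 712 and 756.5 CPM on average in naïve P5 and P15 libraries. It was at 211 and 597.8 CPM in primed P5 and P15, against 0.0425 CPM in MEF. Of 7 pluripotency markers, 1 was called higher and 6 lower in primed cells at P5, and 0 higher and 6 lower at P15. From primed P5 to P15, 2 were called higher and 3 lower. *Dppa4* fell there from 12.6 to 0.20 CPM while *Pou5f1* rose. Of all genes, 24.3% were called higher and 22.8% lower in that comparison. All 12 mesendoderm genes tested were called higher in primed cells at each passage, with median log2 fold changes of 4.10 and 4.66. Fibroblast marker RNA was present throughout. The summed level of 25 such markers was 9367 to 9428 CPM in naïve P5, 15823 to 16626 in naïve P15, 5473 to 5618 in primed P5 and 13564 to 14129 in primed P15, against 79312 CPM in MEF, and none of the 25 was at 0 in any group. From P5 to P15, 20 of these markers were called higher and 2 lower in primed cells, and 14 higher and 2 lower in naïve cells. *Sox1*, *Sox3*, *Sox21* and *Sox15* were at 1 to 5 counts in the MEF library, close to the 3 counts taken as the floor, whereas *Sox4*, *Sox12*, *Sox11*, *Sox9* and *Sox13* were at 198, 97.0, 82.2, 35.04 and 5.95 CPM. Single markers stood apart: in primed P15 *Dcn* (734 CPM) and *Lum* (311 CPM) were above their MEF levels of 211 and 148 CPM. The median marker stood in the stem cell libraries at 11.2% to 22.7% of its MEF level, the lowest at 2.51% to 6.61% and the highest at 53.8% to 354%. How much of this RNA came from feeder cells and how much from the stem cell cultures themselves was not tested. At the median ratio, called the feeder share here, MEF RNA corresponded to 61.6% to 68.1% of the *Sox4* level in primed P15, against 7.29% to 8.07% at the lowest ratio, and to at most 1.87% of *Sox15*, *Sox1*, *Sox3* and *Sox21* in any library. Values with the feeder share subtracted use the median ratio and depend on it.

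*Sox3*, a SoxB1 gene of the epiblast and of neural progenitors on the X chromosome (ENSMUSG00000045179, chrX:60891366-60893430, minus strand), was higher in primed cells at both passages. It was at 9.10 and 8.76 CPM in naïve P5 and at 8.47 and 9.34 CPM in naïve P15. In primed cells it was at 27.98 and 27.5 CPM at P5 and at 40.6 and 34.2 CPM at P15. Every primed library lay above every naïve library, and both primed P15 libraries above both primed P5 libraries. The log2 fold change of primed over naïve was 1.67 (SE 0.10) at P5 and 2.06 (SE 0.12) at P15, with edgeR adjusted p of 6.51e-15 and 2.66e-17. Between the primed passages it rose by 0.40 (SE 0.087, edgeR adjusted p = 0.000322), a call that was lost when libraries were scaled by totals alone (0.27, adjusted p = 0.0110). Naïve cells showed no called change with passage (log2 fold change −0.00026, adjusted p = 0.999), and the test of whether the state difference itself grew gave 0.40 with an adjusted p of 0.0553, short of the threshold.

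*Sox1*, the SoxB1 gene that marks the neural plate (ENSMUSG00000096014, chr8:12395295-12400126, plus strand), was lowest in early naïve cells. Its levels were 4.08 and 3.81 CPM in naïve P5, 9.13 and 9.47 in naïve P15, 13.8 and 12.1 in primed P5, and 12.4 and 11.8 in primed P15. The naïve P15 libraries lay between the naïve P5 and the primed libraries, overlapping neither. At P5 primed cells were 3.35-fold higher (log2 1.75, SE 0.15, edgeR adjusted p = 2.02e-11). At P15 the log2 fold change was 0.37 (SE 0.15) and was not called (edgeR adjusted p = 0.0292), though it passed with scaling by totals alone (0.47, adjusted p = 0.00648). In naïve cells *Sox1* rose 2.36-fold from P5 to P15 (log2 1.24, SE 0.17, edgeR adjusted p = 0.000244), whereas primed cells gave −0.13 (SE 0.12, adjusted p = 0.375). The state difference was smaller at P15 than at P5 by 1.36 (SE 0.21, edgeR adjusted p = 4.18e-06). *Sox1* lies within the transcript *Sox1ot*, which was counted at 1 to 14 reads per stem cell library, and the miRNA gene *Gm25239*, at 0 counts in every library, lies in its exon.

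*Sox2*, the SoxB1 gene of the core pluripotency network, was the bulk of this subfamily. Scaled by exon length, *Sox2* made up 97.5% ± 0.057 (SD, n = 2) of the summed SoxB1 level in naïve P5 and 97.3% ± 0.18 in naïve P15, then 83.1% ± 0.57 in primed P5 and 77.4% ± 2.1 in primed P15. *Sox3* went from 2.14% ± 0.055 of the sum in naïve P5 to 14.1% ± 0.29 in primed P5 and 19.8% ± 2.1 in primed P15. *Sox1* stayed a small part, 0.404% in naïve P5 and 2.80% in primed P5. The sum itself was 202 CPM per kb in naïve P5 and 95.4 in primed P5. *Sox2* fell by 1.28 on the log2 scale between them (edgeR adjusted p = 3.93e-22), while both other genes rose. In primed P15 the sum was 91.3 CPM per kb.

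**Figure D2:**
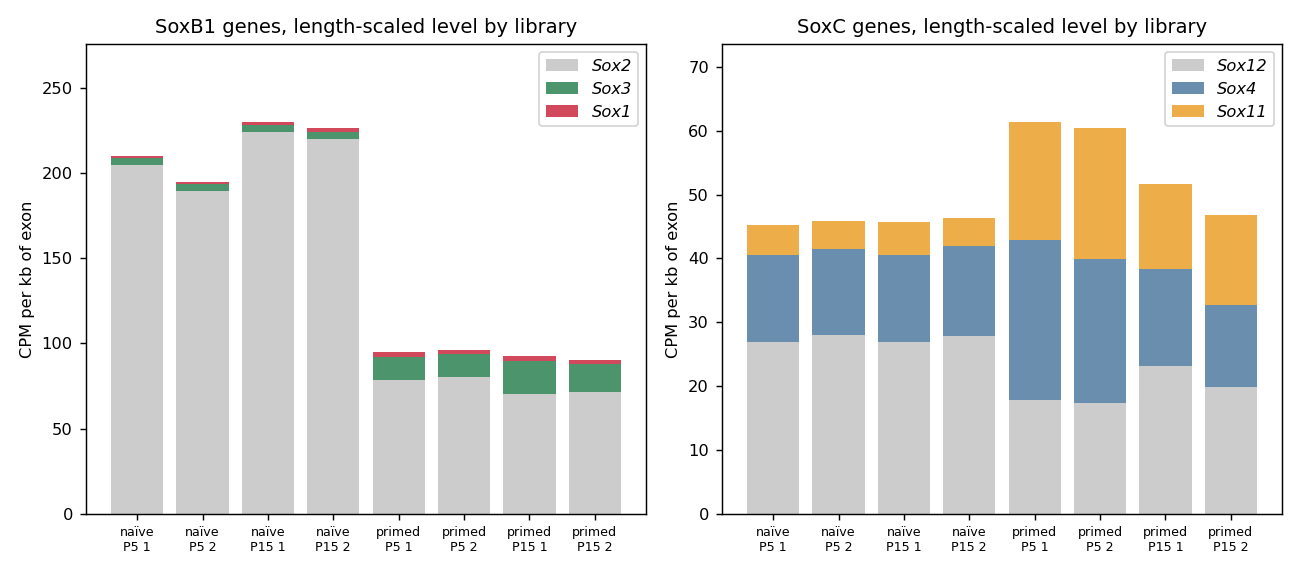
Stacked length-scaled levels (CPM per kb of exon, linear axis from 0) of the SoxB1 genes (left) and the SoxC genes (right) in the 8 stem cell libraries, 1 bar per library. *Sox3* takes a visible part of the smaller primed SoxB1 bars, and *Sox11* takes 32.1% of the SoxC bar in primed P5 against 9.97% in naïve P5.

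*Sox21*, a SoxB2 gene whose product represses SoxB1 targets (ENSMUSG00000061517, chr14:118233232-118237030, minus strand), was highest in early primed cells. It was at 11.3 and 13.7 CPM in naïve P5, 12.1 and 9.66 in naïve P15, 17.5 and 20.3 in primed P5, and 9.58 and 11.4 in primed P15. The primed P5 pair lay above the other 6 libraries, which overlapped one another. The log2 fold change of primed over naïve was 0.62 (SE 0.11, edgeR adjusted p = 1.61e-05) at P5 and −0.05 (SE 0.16, edgeR adjusted p = 0.776) at P15, a value whose sign turned with several settings. Within primed cells *Sox21* fell by 0.88 on the log2 scale from P5 to P15 (SE 0.12, edgeR adjusted p = 6.54e-07). The drop in the state difference, −0.66 (SE 0.19, edgeR adjusted p = 0.00827), was lost with DESeq2 (adjusted p = 0.0332), with the feeder share subtracted (0.0945), and without naïve P5 replicate 1 (0.0520), primed P5 replicate 2 (0.0518), naïve P15 replicate 1 (0.0766) or primed P15 replicate 1 (0.0627), with values from −0.67 to −0.50. Exons of the antisense lincRNA *Gm4675*, at 2 to 12 counts in the stem cell libraries, cover 778 bases of *Sox21*, and reads there cannot be assigned to either.

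Among the SoxC genes, *Sox11* (ENSMUSG00000063632, chr12:27334264-27342574, minus strand), which acts in neural progenitors and newborn neurons, gave the largest called state difference of the 9 members at P5. It was at 38.4 and 37.0 CPM in naïve P5 and at 42.1 and 36.1 in naïve P15, against 153 and 171 in primed P5 and 111 and 117 in primed P15. All primed libraries lay above all naïve ones, and both P15 primed libraries below both at P5. Primed cells were 4.39-fold higher at P5 (log2 2.14, SE 0.055, edgeR adjusted p = 4.84e-24) and 2.90-fold higher at P15 (log2 1.54, SE 0.077, edgeR adjusted p = 1.67e-19). The decline within primed cells was −0.54 (SE 0.059, edgeR adjusted p = 1.06e-08). The state difference was smaller at P15 by 0.58 (SE 0.099, edgeR adjusted p = 2.30e-05), which became an adjusted p of 0.0124 with the feeder share subtracted. MEF held *Sox11* at 82.2 CPM, so that at the median marker share MEF RNA corresponded to 37.2% to 42.9% of the naïve level and 5.38% to 7.59% of the primed P5 level (12.3% to 14.4% and 1.25% to 1.59% at the lowest ratio), and with that share subtracted the log2 fold changes were 2.67 at P5 and 2.09 at P15.

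*Sox4* (ENSMUSG00000076431, chr13:28948919-28953713, minus strand), a SoxC gene of many progenitor cells, was also highest, among the stem cell groups, in early primed cells. Its levels were 65.7 and 64.5 CPM in naïve P5, 65.8 and 67.3 in naïve P15, 120.5 and 107.6 in primed P5, and 73.0 and 61.7 in primed P15. The primed P5 libraries stood apart from the other 6, which spanned 61.7 to 73.0 CPM. The log2 fold change of primed over naïve was 0.84 at P5 (SE 0.052, edgeR adjusted p = 9.83e-15) and 0.0067 at P15 (SE 0.077, edgeR adjusted p = 0.946), and primed cells fell by 0.79 between passages (SE 0.070, edgeR adjusted p = 2.47e-10). Its state difference thus shrank by 0.82 (SE 0.098, edgeR adjusted p = 5.78e-08). *Sox4* was the member highest in MEF, and the summed level of the fibroblast markers was lowest in the primed P5 libraries, in which *Sox4* was highest among the stem cells; 16 of the 25 markers were called lower and 5 higher there than in naïve P5. With the feeder share subtracted the P5 difference was 1.52, the primed decline −1.76 and the shrinkage −1.72, and the P15 value became −0.22 (adjusted p = 0.243). The antisense lincRNA *Gm26735* overlaps 2616 of the 4795 exon bases of *Sox4* and was at 0 counts in every library; how reads that fall in both genes were counted is not given in the sources used here.

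*Sox12* (ENSMUSG00000051817, chr2:152393611-152398063, minus strand), the third SoxC gene and the most abundant of the 9 per length in naïve cells, was lower in primed cells, where *Sox4* (at P5) and *Sox11* were higher. It was at 119.8 and 124.6 CPM in naïve P5 and at 119.8 and 124.2 in naïve P15, but at 79.2 and 77.5 in primed P5 and at 102.9 and 88.3 in primed P15. Every primed library lay below every naïve one, and the primed P15 libraries above the primed P5 ones. It fell by 0.61 on the log2 scale at P5 (SE 0.046, edgeR adjusted p = 9.15e-13) and by 0.36 at P15 (SE 0.070, edgeR adjusted p = 2.28e-05). The rise within primed cells, 0.26 (SE 0.066, edgeR adjusted p = 0.00158), was lost with scaling by totals alone (0.12, adjusted p = 0.106), DESeq2 (0.0128), the feeder share subtracted (0.0228), and without primed P5 replicate 1 (0.0127), primed P5 replicate 2 (0.0289) or primed P15 replicate 1 (0.0398), with values from 0.14 to 0.31 in the last 5 of these. The interaction, 0.26 (SE 0.086, adjusted p = 0.0168), was not called, but was without primed P15 replicate 2 (0.38, adjusted p = 0.000635). As a share of the summed length-scaled SoxC level, *Sox12* went from 60.2% ± 1.1 (SD, n = 2) in naïve P5 to 28.9% ± 0.15 in primed P5 and 43.6% ± 1.6 in primed P15, while *Sox11* went from 9.97% ± 0.37 to 32.1% ± 2.9 and 27.9% ± 3.0. These shares rest on the full exon length of *Sox4*, overlapped bases included.

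*Sox9* (ENSMUSG00000000567, chr11:112782224-112787760, plus strand), the SoxE gene that directs cartilage formation and also acts in neural stem cells, changed the sign of its state difference between passages. It was at 45.9 and 45.5 CPM in naïve P5 but at 22.7 and 23.1 in naïve P15, against 34.0 and 31.9 in primed P5 and 33.2 and 33.2 in primed P15. The naïve libraries thus lay above the primed ones at P5 and below them at P15, with no overlap at either passage, and the 4 primed libraries stayed within 31.9 and 34.0 CPM. At P5 *Sox9* fell by 0.44 on the log2 scale in primed relative to naïve cells (SE 0.067, edgeR adjusted p = 1.27e-06), and at P15 it was higher by 0.53 (SE 0.098, edgeR adjusted p = 1.44e-05). Within naïve cells it dropped by 0.996 from P5 to P15 (SE 0.075, edgeR adjusted p = 1.56e-06), and within primed cells the value was −0.02 (SE 0.080, edgeR adjusted p = 0.824). The difference between the state effects was 0.98 (SE 0.11, edgeR adjusted p = 2.66e-08). Naïve P15 libraries held more fibroblast marker RNA than naïve P5 ones, MEF held *Sox9* at 35.04 CPM, and with the feeder share subtracted the naïve drop was −1.25 (adjusted p = 6.16e-05).

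*Sox15* (ENSMUSG00000041287, chr11:69655314-69656727, plus strand), the SoxG gene, expressed in embryonic stem cells and known from placenta and muscle, was lowest in late primed cells. It was at 12.1 and 12.6 CPM in naïve P5, 10.3 and 9.66 in naïve P15, 8.45 and 8.26 in primed P5, and 1.55 and 1.70 in primed P15. The 4 groups did not overlap, and the primed P15 values rest on 27 and 30 counts. At P15 *Sox15* was 6.15-fold lower in primed than in naïve cells (log2 −2.62, SE 0.23, edgeR adjusted p = 1.85e-12), the largest state difference of the 9 members at that passage. At P5 it fell by 0.53 (SE 0.13, edgeR adjusted p = 0.000502), a call lost with totals alone (−0.33, adjusted p = 0.0234), with DESeq2 (−0.54, 0.0126) and without primed P5 replicate 1 (−0.52, 0.0110) or 2 (−0.49, 0.0130). From primed P5 to P15 it dropped by 2.39 (SE 0.21, edgeR adjusted p = 2.21e-10), whereas naïve cells gave −0.31 (SE 0.13, adjusted p = 0.114). The state difference widened by −2.07 (SE 0.25, edgeR adjusted p = 5.18e-08). MEF held 3 counts of *Sox15*, and MEF RNA at the median marker share corresponded to at most 1.87% of its level in any library. Its exons share 31 bases with the opposite-strand gene *Mpdu1*.

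*Sox13* (ENSMUSG00000070643, chr1:133382303-133424377, minus strand), the SoxD gene, known from lymphocytes and the neural tube, had no log2 fold change beyond 0.47 in any comparison. It was at 27.2 and 26.9 CPM in naïve P5, 24.3 and 28.1 in naïve P15, 32.1 and 30.3 in primed P5, and 35.8 and 37.4 in primed P15. All primed libraries lay above all naïve ones. At P15 primed cells were higher by 0.47 (SE 0.096, edgeR adjusted p = 6.33e-05). The P5 value of 0.24 (SE 0.077, edgeR adjusted p = 0.00741) passed the threshold narrowly and was lost without any of the 4 libraries (log2 0.20 to 0.30, adjusted p from 0.0109 to 0.0608). It was also lost with no filter on low counts (0.23, adjusted p = 0.0295), with DESeq2 (0.23, 0.0817), in the fit of all 8 libraries (0.22, 0.0209) and with the feeder share subtracted (0.19, 0.0774), so the fold moved little and the p more. Its log2 fold change within primed cells, 0.20 (SE 0.079, edgeR adjusted p = 0.0344), was not called, but passed with the feeder share subtracted (0.35, adjusted p = 0.00759).

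**Figure D3:**
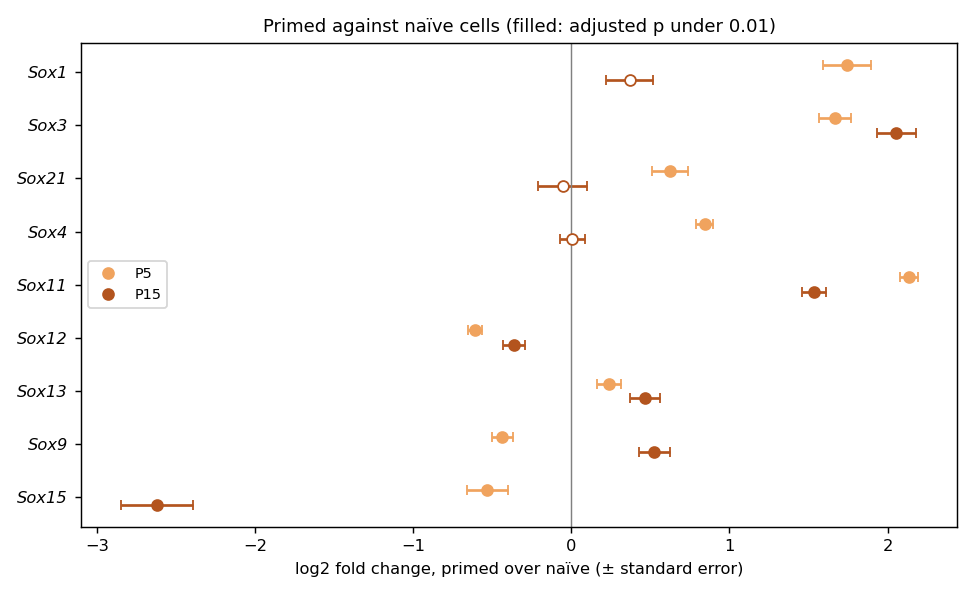
Log2 fold change of primed over naïve cells for the 9 *Sox* genes at P5 (light) and P15 (dark), with standard errors; filled points had an edgeR adjusted p under 0.01. *Sox9* lies on opposite sides of 0 at the 2 passages, and *Sox21* and *Sox4* lie near 0 at P15.

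In primed cells from P5 to P15, 2 members (*Sox3*, *Sox12*) were called higher and 4 (*Sox21*, *Sox4*, *Sox11*, *Sox15*) lower, where 24.3% of all genes tested were called higher and 22.8% lower. In naïve cells 1 member (*Sox1*) was called higher and 1 (*Sox9*) lower, where 4.21% of all genes were called higher and 5.01% lower. The other 7 naïve values ran from −0.31 to 0.048 on the log2 scale, with edgeR adjusted p of 0.114 and above. Scaling by totals alone moved the median of all genes by −0.13 in the primed passage comparison and −0.11 in the interaction, and the share of calls that were higher then went from 51.5% to 34.2% and from 55.0% to 35.2%. The test of the difference between the state effects at P15 and P5 called 1 member higher (*Sox9*) and 5 lower (*Sox1*, *Sox21*, *Sox4*, *Sox11*, *Sox15*), where 13.3% of all genes were called higher and 10.8% lower. The same test asks whether passage changed a gene unequally in the 2 states. It was not called for *Sox3* (adjusted p = 0.0553) or *Sox12* (adjusted p = 0.0168), although the passage change of each was called in primed and not in naïve cells. Passage and time in culture cannot be told apart.

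**Figure D4:**
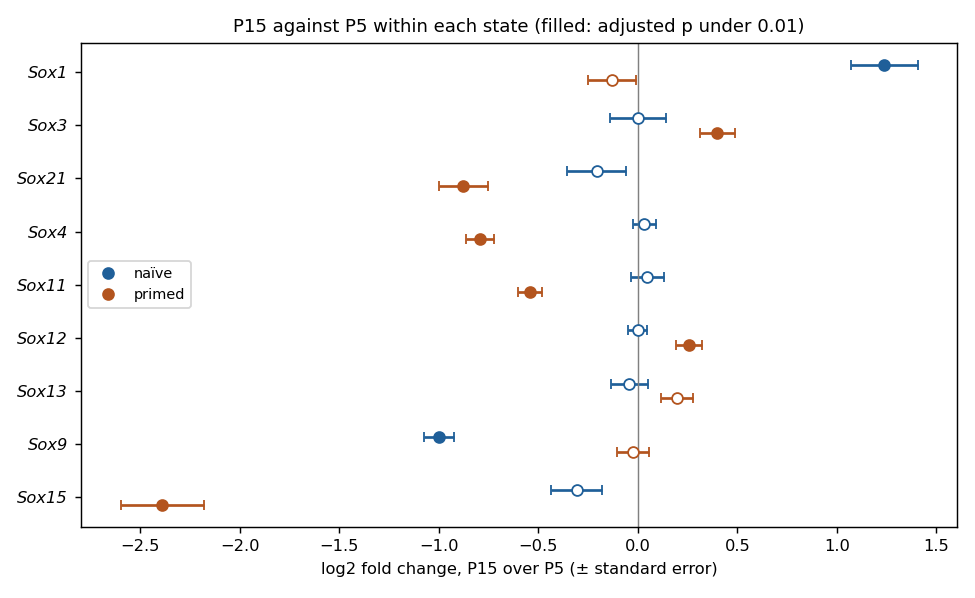
Log2 fold change of P15 over P5 for the 9 *Sox* genes within naïve (blue) and primed (orange) cells, with standard errors; filled points had an edgeR adjusted p under 0.01. Naïve points are filled only for *Sox1* and *Sox9*, whose primed points lie close to 0, and *Sox15* in primed cells is the farthest from 0.

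Ordered by length-scaled level, naïve P5 cells held most *Sox12* (27.4 CPM per kb), then *Sox15* (14.3), *Sox4* (13.6), *Sox9* (11.1), *Sox13* (6.28), *Sox11* (4.54), *Sox3* (4.32), *Sox21* (3.29) and *Sox1* (0.816), and no neighbours in this order overlapped between their 2 libraries. In primed P5 cells the order began with *Sox4* (23.8 CPM per kb), *Sox11* (19.5), *Sox12* (17.6) and *Sox3* (13.4). In primed P15 cells *Sox12* (21.5 CPM per kb) and *Sox3* (18.1) led, *Sox4* (14.05) and *Sox11* (13.7) overlapped, and *Sox15* (1.89) had moved from the second to the last place. *Sox21* (2.76 CPM per kb) and *Sox1* (2.51) overlapped there too. Naïve P15 cells kept *Sox12* first (27.4 CPM per kb), with *Sox11* (4.70) and *Sox3* (4.31) overlapping. These places depend on the exon length used for *Sox4*. With all its counts kept but the bases shared with *Gm26735* taken off its length, it would stand at 29.9 CPM per kb in naïve P5. That would be first of the 9, but holds only if no read in the shared bases was counted for *Sox4*, which is not known.

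The other *Sox* genes and lists of genes from the lineages these factors act in were set beside the members. Of all genes tested, 31.2% were called higher and 31.1% lower in primed cells at P5, and 28.2% and 28.4% at P15. The counts for every list below stand against these shares. Of 10 other *Sox* genes, 8 were tested at P5, where 5 were called higher and 1 lower in primed cells (median log2 2.07, against 0.0078 over all genes). The lower gene was *Sox2*. *Sox17*, an endoderm regulator, went from 0.546 to 28.8 CPM on average (log2 5.74, edgeR adjusted p = 1.99e-21), *Sox7* from 1.81 to 12.3 CPM and *Sox5*, the SoxD relative of *Sox13*, from 1.54 to 9.43 CPM. At P15 3 were called higher, *Sox17*, *Sox7* and *Sox5*, and *Sox2* again lower (median log2 0.76). From primed P5 to P15, 0 of the 8 were called higher and 5 lower (median −0.53), where 24.3% of all genes were called higher and 22.8% lower. In naïve cells 0 of 7 were called in either direction. With 4.21% of all genes called higher and 5.01% lower there, 7 genes are too few to stand apart from them.

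Neural progenitor genes moved in both directions. At P5 13 of 20 tested were called higher and 4 lower in primed cells (median log2 1.21), and at P15 10 of 19 were called higher and 4 lower (median log2 1.24). Higher in primed cells at P15 were *Cdh2*, the gene of N-cadherin, from 37.5 to 123.9 CPM (log2 1.71, edgeR adjusted p = 1.05e-21), *Zic2*, a zinc finger factor of the epiblast and neural plate, from 38.8 to 122 CPM, and *Prom1*, from 5.16 to 37.4 CPM. *Nes*, the gene of the intermediate filament nestin, stood at 119.7 CPM in naïve and 265 in primed P15. In the opposite direction, *Pax6*, the eye and forebrain regulator, went from 8.73 to 0.314 CPM (log2 −4.77, edgeR adjusted p = 5.60e-15), and *Dll1*, a Notch ligand, from 24.4 to 2.43 CPM. From primed P5 to P15, 7 of 20 tested were called higher and 7 lower (median log2 −0.12). Among those that fell, *Six3* was at 11.1 CPM in primed P5 and 2.48 in primed P15 (edgeR adjusted p = 5.75e-11). *Hesx1* was at 19.7 and 4.08 CPM (edgeR adjusted p = 8.70e-14). Those that rose were *Fabp7* (1.53 to 7.19 CPM, log2 2.20, edgeR adjusted p = 3.05e-09), *Pou3f2*, *Cdh2*, *Zic2*, *Nes*, *Ncam1* and *Zic1*. In naïve cells 3 of 16 tested were called higher with passage, *Pax6* (4.59 to 8.73 CPM, edgeR adjusted p = 0.00343), *Nes* (92.1 to 119.7 CPM, edgeR adjusted p = 0.000225) and *Ncam1* (log2 0.79). The 2 called lower were *Prom1* (log2 −1.21, edgeR adjusted p = 0.000134) and *Dll1* (log2 −0.59, edgeR adjusted p = 0.00037). MEF held *Ncam1* at 397 CPM, *Nes* at 148, *Cdh2* at 134, *Zic1* at 30.2, *Zic2* at 5.02, *Fabp7* at 4.89 and *Pou3f2* at 0. *Pax6*, *Prom1* and *Dll1* were at 0.638, 0.893 and 0.680 CPM there. *Ncam1* stood at 56.2 CPM in naïve P5 and 97.3 in naïve P15. The part of feeder RNA in these values was not tested.

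Neuronal genes were split, with 4 of 12 called higher and 4 lower at P5 and 5 higher and 5 lower at P15 (median log2 −0.067). *Tubb3*, a neuronal tubulin, was lower in primed P15 (62.5 to 13.5 CPM), as was *Neurod1* (16.9 to 0.314 CPM), while *Gap43*, of growing axons, was higher (18.7 to 51.3 CPM). Of 10 neural crest genes tested, 5 were called higher and 0 lower at each passage, led at P15 by *Ednrb*, the endothelin receptor, at 0.285 CPM in naïve and 16.0 in primed cells. *Foxd3* (23.2 to 39.3 CPM) and *Nr2f1* (3.31 to 7.39 CPM) were also called higher at P15. *Ednrb* and *Nr2f1* RNA was present in MEF as well, at 16.7 and 11.4 CPM. At P5 the neural crest median was 0.53 and at P15 0.33 on the log2 scale.

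Cartilage genes, among them known targets of Sox9, were called in both directions. At P5 7 of 12 tested were called higher and 4 lower in primed cells (median log2 1.36), and at P15 5 of 11 higher and 5 lower (median log2 0.61). *Col2a1*, the collagen gene Sox9 is known to activate, was at 16.1 CPM in naïve P5 and 196 in primed P5 (log2 3.64, edgeR adjusted p = 1.20e-29), while *Sox9* was lower there. In naïve cells *Col2a1* rose from 16.1 to 30.7 CPM between passages (log2 0.94, edgeR adjusted p = 1.75e-05) while *Sox9* dropped. *Acan*, the gene of aggrecan, was lower in primed cells, at 11.4 CPM in naïve and 1.14 in primed P15. *Col11a1* was at 957 CPM in MEF, against 18.6 to 83.4 CPM in the stem cell groups, and *Col2a1* at 96.2 CPM, and the part of feeder RNA in these values was not tested.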

How the data were processed

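The 9 RNA-seq libraries were made from total RNA, from which mRNA was selected on poly-T beads, with an NEBNext Ultra kit that does not mark strand. Per the labels and the study's methods, the authors trimmed reads with cutadapt, aligned them to mm10 with HISAT2 (up to 20 alignments a read), counted them per Ensembl gene with featureCounts and deposited the raw counts; the counting options and annotation release are not given in the sources used here. Those counts were named with GENCODE M21, which matched 54079 of 54232 genes, the others taking 0.0116% to 0.0165% of the counts. The 92 spike-in rows, all at 0, were left out. Genes that reached 10 counts in 2 or more of the fitted libraries were tested with edgeR 4.0.16 (R 4.3.3, TMM, quasi-likelihood test, two-sided), on the 4 libraries of each comparison, and on all 8 for the interaction of state and passage; adjusted p-values are Benjamini-Hochberg over all genes tested. Shares of all genes and counts of members and of list genes used the adjusted p alone (under 0.01); the totals of genes called in the closing section also asked for a fold of at least 2. Replicates, scaled by their summed counts, differed beyond sampling noise (chi-square per gene 2.09 to 3.28). What edgeR names the biological coefficient of variation was 3.26% to 4.79%, a spread that may be technical here. At these totals 3 counts equal 0.148 to 0.221 CPM in the stem cell libraries, a floor for counting error only. Feeder share was the median over 25 fibroblast markers of the ratio to MEF, and was subtracted as an alternative, beside other scalings, no filter, DESeq2 1.42.0, a fit of all 8 libraries, a replicate block and leaving out each library. The code was tested on simulated data.

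The 9 members and all gene lists were chosen with earlier results of these data known. Named genes are the members, list genes (the 3 with the smallest adjusted p at P15 in each list, and any other gene of the lists that also served as cell type markers), the 2 genes of most similar profile, and overlapping or neighbouring genes. *Sox5*, which is not among the 3 of its list, is named as well.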

Additional observations from a re-analysis of the deposited data

Results flagged for a closer look

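For 6 of the 9 members the primed against naïve difference at P15 differed from that at P5 by edgeR's interaction test over all 8 stem cell libraries, each with an adjusted p below 0.01. In log2 units the change was −1.36 for *Sox1*, −0.66 for *Sox21*, −0.82 for *Sox4*, −0.58 for *Sox11*, 0.98 for *Sox9* and −2.07 for *Sox15*. Of all genes, the same test called 13.3% higher and 10.8% lower. The *Sox21* call was lost with the feeder share subtracted (adjusted p = 0.0945) and under other alternatives given with that gene. The *Sox11* call was lost with the feeder share subtracted (adjusted p = 0.0124). For *Sox9* the state difference was below 0 at P5 and above 0 at P15, called each time. The course of *Sox1* and *Sox9* moved with the naïve libraries, and that of *Sox21*, *Sox4*, *Sox11* and *Sox15* with the primed libraries. Groups of 2 libraries are too small for a test of outlying libraries.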

How the results depend on the processing

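Of 29 called member differences, 0 changed direction and 316 of 343 recomputed values kept their call, the 27 losses being those given with *Sox13* and *Sox15* at P5, *Sox3* and *Sox12* in the primed passage comparison, and *Sox21* and *Sox11* in the interaction. For the 16 uncalled differences, 4 of 188 recomputed values became called. They were *Sox1* at P15 with totals alone and *Sox13* in the primed passage comparison with the feeder share subtracted. The others were *Sox12* in the interaction, with no filter on low counts (0.29, adjusted p = 0.00378) or without primed P15 replicate 2. The cause was not tested. The other sign changes were among uncalled values. With size factors of DESeq2 they were −0.0011 for *Sox4* at P15 and 0.0024 for *Sox3* and 0.0015 for *Sox12* in the naïve passage comparison, and with DESeq2's own test −0.00086, 0.0011 and 0.0013. With totals alone *Sox21* at P15 was 0.051. With the feeder share subtracted they were 0.010 for *Sox21* and −0.22 for *Sox4* at P15, 0.037 for *Sox1* in the primed and 0.033 for *Sox3*, −0.028 for *Sox4* and 0.014 for *Sox12* in the naïve passage comparison. Leaving out a library gave −0.24 to 0.092 for *Sox21* and −0.094 to 0.15 for *Sox4* at P15, −0.087 to 0.0016 for *Sox9* in primed cells, and −0.067 to 0.061 for *Sox3*, −0.068 to 0.17 for *Sox11*, −0.034 to 0.022 for *Sox12* and −0.15 to 0.052 for *Sox13* in naïve cells.

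Genes called at a fold of at least 2 (3680 at P5, 3646 at P15, 1853 and 178 for passage in primed and naïve cells, 1212 in the interaction) and counts of members called stayed within 1.5 times under every alternative run. Genes called in the naïve passage comparison at the adjusted p alone were 1446, against 551 with no filter, 908 with the feeder share subtracted and 2783 with a replicate block. Deviations of replicates of the same number were only weakly correlated (from −0.106 to 0.091), so the numbers were not taken as pairs. At the adjusted p alone, the block called 8312 genes in the primed passage comparison, against 7518 without it. With the block 3663, 3369, 1923, 229 and 1164 genes were called, and of the members only *Sox21* in the interaction lost its call (adjusted p = 0.0109, within 0.00242 to 0.0945 over the alternatives). At P15, crossing the numbers, added after seeing the data, called 3647 genes. At the adjusted p alone it called 9477, against 8899 without a block. Length-scaled levels with all counts kept but the overlapped exon bases taken off the length were also added afterwards. In naïve P5, naïve P15, primed P5 and primed P15 they were 4.14, 3.60, 6.26 and 3.48 CPM per kb for *Sox21*. For *Sox4* they were 29.9, 30.5, 52.3 and 30.9, and *Sox15* stood at 14.9 in naïve P5 and 10.1 in primed P5. By the longest transcript *Sox13* stood at 7.33, 7.10, 8.45 and 9.91 CPM per kb. Depth limits *Sox15* most, at 27 and 30 counts in primed P15.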

Other observations

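Genes whose course over the 8 stem cell libraries lay closest to each member's, by distance between centred log2(CPM + 1) profiles among 11459 genes with a mean of at least 5 CPM, are given as a description. The 8 libraries differ in depth and in fibroblast marker RNA, and samples of a group share both state and passage. Closest to *Sox15* was *Bspry* (21.7, 17.2, 14.1 and 3.43 CPM in naïve P5, naïve P15, primed P5 and primed P15), then *Prkaa2*, a subunit of AMP-activated kinase (20.2, 17.8, 13.2 and 3.17 CPM). Closest to *Sox3* was *Nr2f2*, the nuclear receptor COUP-TFII (9.55, 10.2, 30.4 and 38.7 CPM), then *Oaf*. Closest to *Sox1* was *Sp5*, a Wnt target (3.20, 6.64, 11.2 and 10.9 CPM), then *Dnm3os*. *Sox9* lay nearest to *Ifitm1* (84.1, 43.8, 56.2 and 61.1 CPM) and *Fosl1*, an AP-1 subunit (48.5, 24.97, 37.4 and 34.5 CPM). The other nearest pairs were *Plin2* and *Fam20c* for *Sox11*, *Kars* and *Tuba1c* for *Sox12*, *2900026A02Rik* and *Rusc2* for *Sox4*, *Ago3* and *Zfp661* for *Sox21*, and *Mtmr10* and *Zfp410* for *Sox13*.

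Some genes that overlap or neighbour the members on the chromosome are given here, chosen after their values were seen. *Mpdu1*, which overlaps *Sox15*, fell by 0.67 on the log2 scale in primed relative to naïve cells at P15 (SE 0.078, edgeR adjusted p = 1.69e-09) but rose by 0.27 from primed P5 to P15 (SE 0.076, edgeR adjusted p = 0.00307), when *Sox15* dropped. *Fxr2*, 2017 bp away, fell by 0.42 at P15 (SE 0.060, edgeR adjusted p = 1.41e-07). *Cd68*, 7486 bp away, was higher in primed cells at P5 by 1.18 and fell by 2.02 from primed P5 to P15 (SE 0.12, edgeR adjusted p = 7.69e-14). *Cmpk2*, the nearest expressed gene on one side of *Sox11* at 854427 bp, was higher in primed cells by 1.75 at P5 and by 4.11 at P15 (SE 0.19, edgeR adjusted p = 2.77e-20), while the difference of *Sox11* shrank. *2610307P16Rik*, 63299 bp from *Sox4*, was higher in primed cells at P5 by 1.71 (SE 0.44, edgeR adjusted p = 0.000996) and not called at P15 (0.53, adjusted p = 0.389). Its counts were 7 and 12 in naïve P5 and 31 and 27 in primed P5. At P15 they were 7 and 9 in naïve and 16 and 12 in primed cells. Such counts are too low for the missing call at P15 to show a course like that of *Sox4*. *Etnk2*, 1967 bp from *Sox13*, was lower in primed P15 by a log2 fold change of −0.63 (SE 0.21, edgeR adjusted p = 0.00925), where *Sox13* was higher.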
